A study of Mus musculus with 8 samples.

Results

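Mature miRNAs of the miR-184, miR-204 and miR-200 families, which are known from epithelia, were followed through 8 small RNA libraries of sorted mouse microglia. The 8 members are miR-184-3p, miR-204-5p, miR-211-5p and the 5 miRNAs of the miR-200 family (miR-200a-3p, miR-200b-3p, miR-200c-3p, miR-141-3p and miR-429-3p), out of 1966 mature miRNAs counted. The list was chosen by biology around miR-184-3p, with earlier results of these data known. miR-184-3p itself was selected on its measured change from young to aged libraries and on its measured level in the library of aged mouse 4. Its levels and its age change are therefore given as a description without a test. The question was whether the high miR-184-3p of that library went with a rise of the other epithelial miRNAs.

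The libraries came from C57BL/6 males, 4 libraries from young mice of 3 months and 4 from aged mice of 21 months, with no treatment named for either age. Brains without olfactory bulb and cerebellum were dissociated, myelin was removed, and live CD11b+ CD45low CD206- cells were collected. This gate holds brain myeloid cells, called microglia in the study, and was meant to keep out infiltrating and CD206+ macrophages. Between 10000 and 40000 cells entered a library, and the library of aged mouse 4 alone pooled the cells of 2 mice, so the library in which miR-184-3p stood highest also differed from the others in its preparation. This pooling and the level of miR-184-3p cannot be told apart. RNA of a few carried-over cells and a low level in all sorted cells cannot be told apart in bulk libraries either.

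An miRNA is cut from a hairpin precursor, and the arm that is loaded into Argonaute pairs with target mRNAs mainly through its seed, bases 2 to 8. miR-184 is known for its abundance in the corneal and lens epithelium. miR-204 and miR-211 lie inside genes of the Trpm channel family and are abundant in pigmented epithelium, and miR-204 also in the choroid plexus, the epithelium that makes cerebrospinal fluid. The miR-200 family holds epithelial cells in their state by repressing the transcription factors Zeb1 and Zeb2, and it is usually low in cells of blood and mesenchymal origin.

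The mature sequences are shown because families are defined by them and because near-identical members could exchange reads. All 8 members were matched to RefSeq entries (GRCm38.p6). Sequences run 5′ to 3′ with the seed in capitals.
mmu-miR-184-3p: uGGACGGAgaacugauaagggu
mmu-miR-204-5p: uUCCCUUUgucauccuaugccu
mmu-miR-211-5p: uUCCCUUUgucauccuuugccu
mmu-miR-200a-3p: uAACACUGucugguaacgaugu
mmu-miR-141-3p: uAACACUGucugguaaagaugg
mmu-miR-200b-3p: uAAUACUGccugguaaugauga
mmu-miR-200c-3p: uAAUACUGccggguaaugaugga
mmu-miR-429-3p: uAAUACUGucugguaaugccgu

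The 8 sequences fell into 4 seeds. The seed of miR-184-3p was shared by 0 of the other entries among 1679 mature mouse sequences, and the nearest of them, miR-3473a, differed at 8 positions. miR-204-5p and miR-211-5p differed at a single base, A17U, counted from 1 at the 5′ end with the base of miR-204-5p first. Their seed also occurred in miR-7670-3p. Within the miR-200 family, miR-200a-3p and miR-141-3p shared 1 seed and differed by C17A and U22G. miR-200b-3p, miR-200c-3p and miR-429-3p shared the other, with U11G and A22G between miR-200b-3p and miR-200c-3p over their first 22 bases. None of the deposited counts of the 8 members carried a fraction, and how the counting divided reads that match several miRNAs was not found in the sources used here.

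The genes lie apart from each other (GRCm38). Mir184 is at chr9:89802260-89802328 on the minus strand, outside any annotated gene, with the nearest coding gene, Ankrd34c, 63784 bases away. Mir204 (chr19:22750605-22750672, plus strand) is in an intron of Trpm3, and Mir211 (chr7:64205806-64205911, plus strand) in an intron of Trpm1. The miR-200 family has 2 loci. Mir200b, Mir200a and Mir429 follow each other on the minus strand of chromosome 4, from 156053905 to 156055750, inside an intron of Ttll10, and Mir429 also overlaps an exon of the transcript Gm13648. Mir200c and Mir141 lie 336 bases apart on the minus strand of chromosome 6, from 124717914 to 124718390, in an intron of the antisense transcript Gm15884, and Mir141 also overlaps an exon of Gm29008. The precursor hairpins of Mir184 and Mir204, with both mature arms in capitals, show where the reads below came from.
Mir184 hairpin: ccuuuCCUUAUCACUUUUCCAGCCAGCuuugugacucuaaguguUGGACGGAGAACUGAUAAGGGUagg
Mir204 hairpin: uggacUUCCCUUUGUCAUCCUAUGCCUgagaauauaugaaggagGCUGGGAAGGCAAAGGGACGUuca

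Levels are given as CPM, the deposited estimated counts scaled to 1000000 miRNA counts of the library. The libraries held 208379 to 298820 miRNA counts in young and 150322 to 235124 in aged mice, so that 3 counts, taken as the detection floor, stood for 10.0 to 20.0 CPM. Summed miRNAs of microglia and other myeloid cells (6 of 6 detected, led by miR-146a-5p and miR-142a-3p) reached 65407 to 77383 CPM in young and 50282 to 74853 CPM in aged libraries, the lowest sum being that of aged library 4. No sequencing batch is named in the sources used here. Of the 8 members, 6 passed the filter for testing, and miR-200a-3p and miR-200b-3p did not.

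miR-184-3p had 16, 11, 26 and 35 counts in young libraries 1 to 4 and 60, 20, 24 and 237 counts in aged libraries 1 to 4. In CPM these were 53.5, 52.8, 95.9 and 150.1 in young and 399, 118, 102 and 1314 in aged libraries. Aged library 4 stood above all others, aged library 1 was next, and aged libraries 2 and 3 lay between the levels of young libraries 3 and 4, so the ages overlapped. The level in aged library 4 (95% Wilson interval 1157 to 1492 CPM, counting error only) was 12.9 times the median of the other 7 libraries and 3.29 times that of aged library 1 (310 to 514 CPM). The mean was 88.1 ± 46.0 CPM in young and 484 ± 570 CPM in aged libraries (SD, n = 4), and 207 ± 167 CPM in the other 3 aged libraries. Without aged library 4, the log2 fold change of aged over young in edgeR fell from 2.49 to 1.28. The other arm of the hairpin, miR-184-5p, had 0 counts in every library, aged library 4 included.

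**Figure D1:**
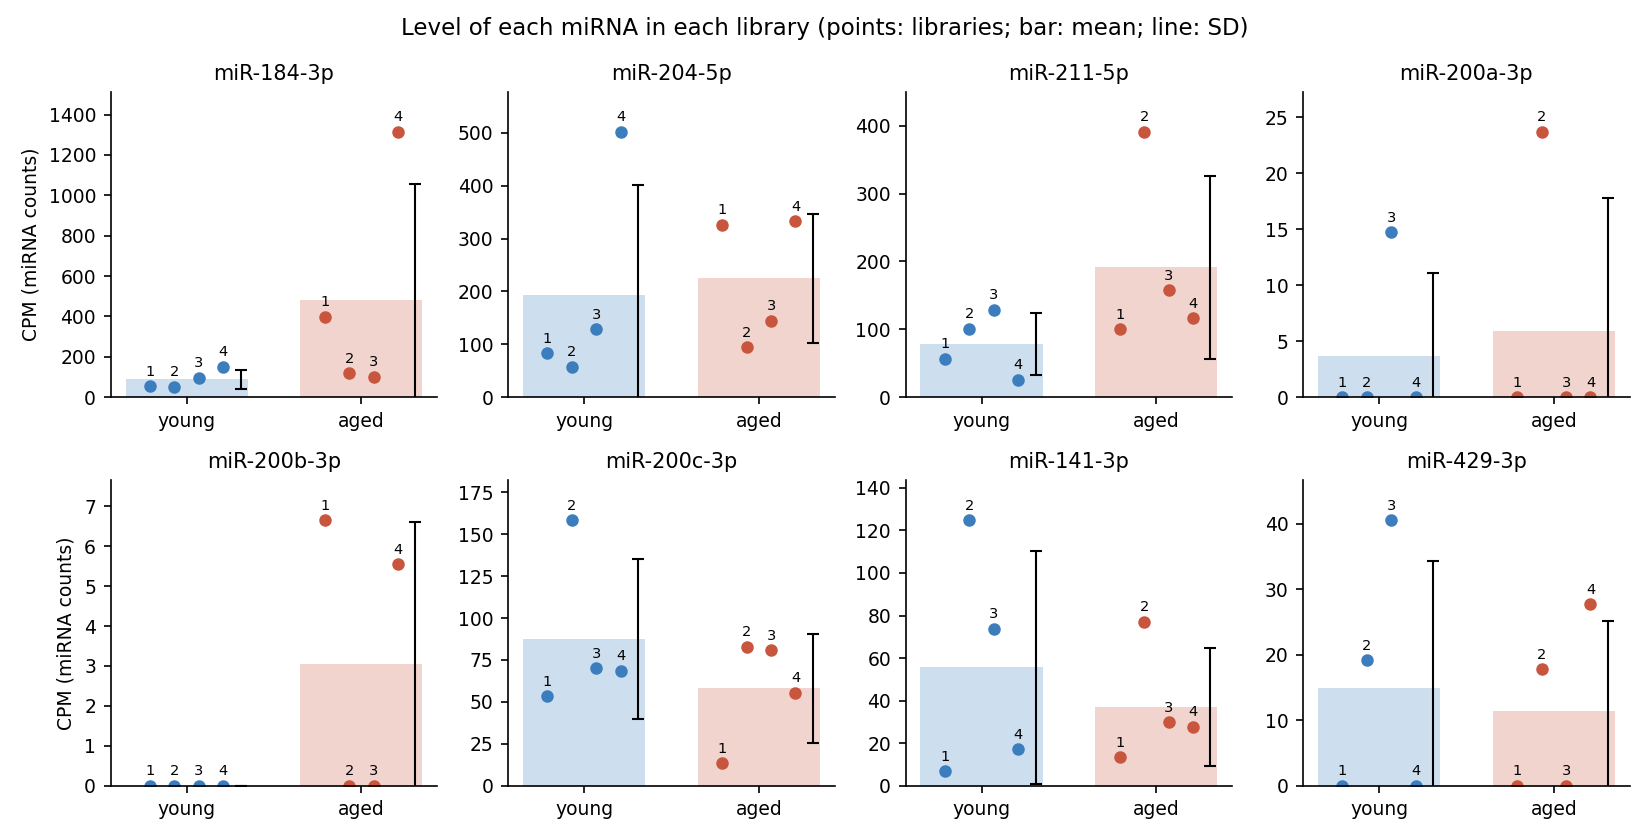
CPM of each of the 8 miRNAs in the young and aged libraries, with 1 numbered point per library, the mean as a bar and the SD as a line (n = 4 per age, cut at 0). miR-184-3p has its highest point, 1314 CPM, in aged library 4, while the highest points of miR-204-5p, miR-211-5p, miR-200c-3p and miR-429-3p are in young library 4, aged library 2, young library 2 and young library 3.

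miR-204-5p, the miRNA of the choroid plexus and pigmented epithelium, had 25, 12, 35 and 117 counts in young and 49, 16, 34 and 60 counts in aged libraries 1 to 4. Its CPM was 83.7, 57.6, 129 and 502 in young and 326, 94.8, 145 and 333 in aged libraries. Young library 4 was highest, aged libraries 4 and 1 followed at nearly equal levels, and the ages overlapped. Aged library 4 was 2.58 times the median of the other 7. The passenger arm miR-204-3p was counted in 4 libraries, with 10 counts in young library 2, 2 in young library 3, 9 in aged library 1 and 4 in aged library 4. Young library 4, with the most miR-204-5p, had 0 counts of it.

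miR-211-5p, the near-copy known from melanocytes and pigmented epithelium, had a different order of libraries. It had 17, 21, 35 and 6 counts in young and 15, 66, 37 and 21 counts in aged libraries 1 to 4, or 56.9, 101, 129 and 25.7 CPM and 99.8, 391, 157 and 116 CPM. Aged library 2 was highest and young library 4, the library richest in miR-204-5p, lowest, and the ages overlapped. Aged library 4 ranked 4 of 8 libraries, at 1.16 times the median of the others. The share of miR-204-5p in the summed counts of both miRNAs therefore moved from 19.5% in aged library 2 (16 of 82 counts, Wilson 95% interval 12.4% to 29.4%) to 95.1% in young library 4 (117 of 123, 89.8% to 97.7%). In aged library 4 it was 74.1% (63.6% to 82.4%). These intervals, which cover counting error only, did not meet between aged library 2 and either of the other libraries. miR-211-3p had 1 count in all, in aged library 2.

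Of the miR-200 family, the pair from chromosome 6 gave most counts, 208 of 241 (86.3%) over all libraries, against 33 counts for the trio from chromosome 4. By library this share ran from 71.4% in aged library 4 to 100%. miR-200c-3p had 53.5, 158, 70.1 and 68.6 CPM in young and 13.3, 82.9, 80.8 and 55.5 CPM in aged libraries 1 to 4, from 2 to 33 counts. It was highest in young library 2 and lowest in aged library 1, and aged library 4 ranked 6 of 8. miR-141-3p, processed from the neighbouring hairpin, had 6.69, 125, 73.8 and 17.2 CPM in young and 13.3, 77.0, 29.8 and 27.7 CPM in aged libraries, from 2 to 26 counts. It was also highest in young library 2, with aged library 4 at rank 5. In both miRNAs the ages overlapped.

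The trio from chromosome 4 was close to the floor. miR-429-3p had 4 counts in young library 2, 11 in young library 3, 3 in aged library 2 and 5 in aged library 4, and 0 in the other 4 libraries. miR-200a-3p had 4 counts in young library 3 and 4 in aged library 2 and 0 elsewhere, and miR-200b-3p had 1 count each in aged libraries 1 and 4. Aged library 4 was thus second to young library 3 in miR-429-3p and held 0 counts of miR-200a-3p, which allows up to 16.6 CPM. At these counts no difference between ages was detectable. Of the other arms of the 8 hairpins, 5 were at 0 in all libraries (miR-184-5p, miR-200a-5p, miR-200b-5p, miR-200c-5p and miR-429-5p), and miR-141-5p had 1 count in young library 1 and 5 in young library 2, the library highest in miR-141-3p.

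By mean level over the 8 libraries the order was miR-184-3p (286 ± 430 CPM, SD), miR-204-5p (209 ± 159 CPM), miR-211-5p (135 ± 111 CPM), miR-200c-3p (72.9 ± 40.9 CPM), miR-141-3p (46.3 ± 41.4 CPM), miR-429-3p (13.2 ± 15.6 CPM), miR-200a-3p (4.81 CPM) and miR-200b-3p (1.52 CPM). The sequences have 22 or 23 bases, so these levels were not corrected for length. The order is one of counts, and whether the library preparation captured the different sequences equally was not tested. The top of the order rests on aged library 4: by the median, miR-204-5p (137 CPM) came before miR-184-3p (110 CPM) and miR-211-5p (109 CPM), and miR-184-3p exceeded miR-204-5p in 3 of 8 libraries. miR-204-5p exceeded miR-211-5p in 4 of 8. The sole step larger than its own SD over libraries was that from miR-141-3p to miR-429-3p, with a difference in log2(CPM + 10) of 1.25 ± 0.73 (7 of 8 libraries). Between all other neighbours the difference was below its SD. Of the 4 members among the 217 tested miRNAs with at least 80 counts, miR-184-3p varied most relative to its mean, with a coefficient of variation of 151%, rank 2 of 217, where the median was 38.5%. That of miR-211-5p was 82.7%, of miR-204-5p 76.2% and of miR-200c-3p 56.1%.

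To see what set aged library 4 apart, log2(CPM + 10) of each miRNA in that library was compared with the median of the other 7 libraries. The difference was 3.56 for miR-184-3p, the largest of the 217 miRNAs with at least 80 counts. For miR-204-5p it was 1.30, the fifth largest. For miR-211-5p it was 0.19, for miR-200c-3p −0.29 and for miR-141-3p −0.08. For miR-429-3p it was 1.92, from 5 counts against a median of 0, a value that was 4.84 with 1 CPM and 0.64 with 50 CPM added before the logarithm. miR-184-3p and miR-204-5p were thus both high in this library, with miR-429-3p on few counts, whereas the other 3 tested members lay near the middle. As 1 library was compared, these differences have no replicate check.

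**Figure D2:**
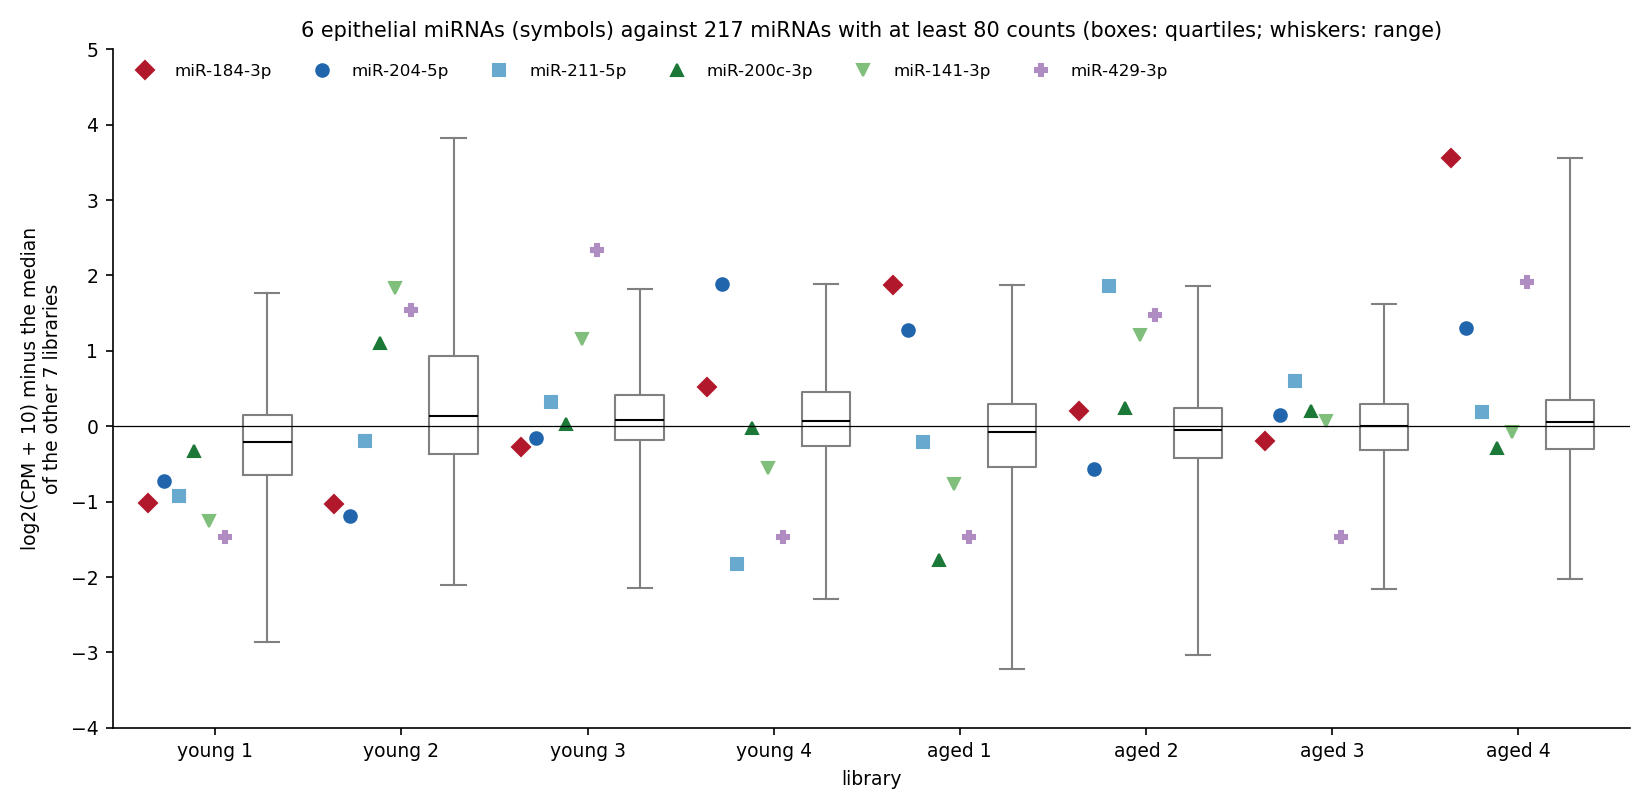
Difference in log2(CPM + 10) of each library from the median of the other 7, for 6 epithelial miRNAs (symbols) and for the 217 miRNAs with at least 80 counts (box: quartiles, whiskers: range, which includes members with enough counts). In aged library 4 miR-184-3p marks the upper end at 3.56, miR-204-5p is at 1.30, and miR-211-5p (0.19), miR-200c-3p (−0.29) and miR-141-3p (−0.08) lie near 0.

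Of the 5 tested members other than miR-184-3p, which was selected for its level there, 0 had their highest level in aged library 4. Among all 419 tested miRNAs, 65 (15.5%) had theirs in that library and 115 in young library 2. All 8 members together made up 254, 513, 553 and 764 CPM in young and 858, 806, 515 and 1880 CPM in aged libraries 1 to 4, and 69.9% of the last value was miR-184-3p. Without miR-184-3p the sum was 201, 461, 457 and 613 CPM in young and 459, 687, 413 and 566 CPM in aged libraries, with aged library 4 at rank 3, behind aged library 2 and young library 4. The miR-200 family alone summed to 60.2, 302, 199 and 85.8 CPM in young and 33.3, 201, 111 and 116 CPM in aged libraries. It was lowest in aged library 1, the library with the second highest miR-184-3p.

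Over the 8 libraries, on the log2(CPM + 10) scale, the highest correlation of miR-184-3p with another tested member was that with miR-204-5p. Pearson's r was 0.72 (exact permutation p = 0.035, adjusted over the 5 members 0.174) and Spearman's rho 0.86 (exact p = 0.011, adjusted 0.054). Neither passed after adjustment. Without aged library 4 r was 0.77, and it was 0.80 without the 2 libraries farthest from the median of miR-184-3p, aged 1 and aged 4. With each library left out in turn, r ran from 0.66 without young library 2 to 0.91 without young library 4, where miR-204-5p was highest. The unadjusted exact permutation p-value was then above 0.05 in 6 of 8 cases, which have 1 library fewer. No value within an age is given, as each age holds 4 libraries.

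miR-211-5p, the near-copy of miR-204-5p, had r = 0.04 with miR-184-3p (exact permutation p = 0.912) and rho = −0.02. For miR-200c-3p r was −0.53 (exact permutation p = 0.187, adjusted 0.467) and rho −0.50, and r was −0.31 without aged libraries 1 and 4. For miR-141-3p r was −0.28 (exact permutation p = 0.521) and rho −0.36, and for miR-429-3p r was 0.16 (exact permutation p = 0.711) and rho −0.09. In sum over the miR-200 family, aged library 4 ranked 4 and aged library 1 ranked 8 of 8 libraries, although they were the 2 libraries with the most miR-184-3p.

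**Figure D3:**
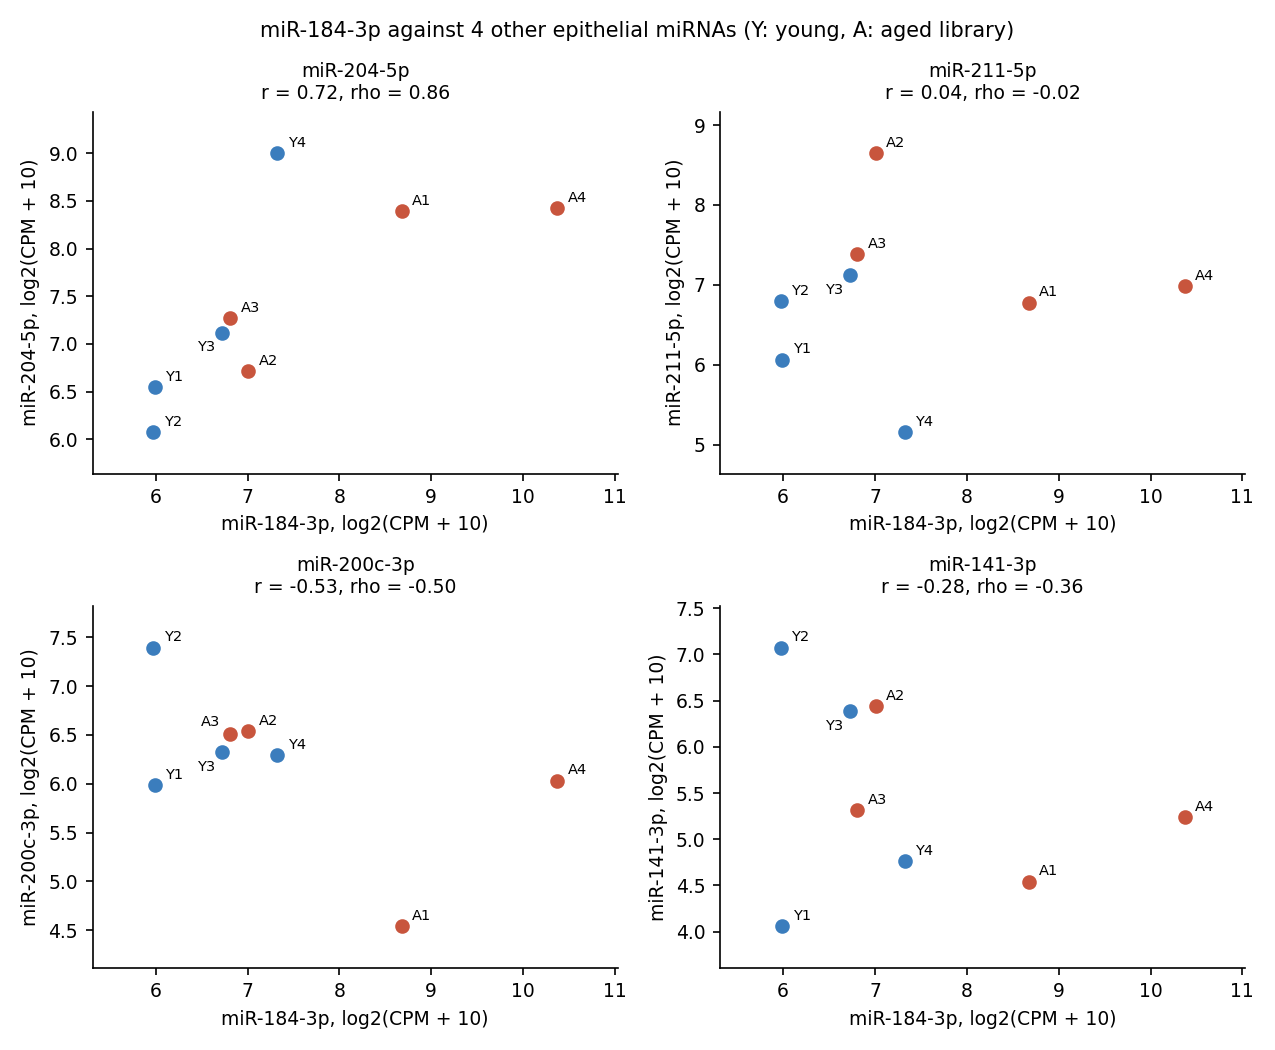
Level of miR-184-3p (x axis) against that of miR-204-5p, miR-211-5p, miR-200c-3p and miR-141-3p (y axes), all as log2(CPM + 10), with 1 point per library (Y1 to Y4 young, A1 to A4 aged). With miR-204-5p the libraries ascend together (r = 0.72), and with the other 3 miRNAs A4 and A1, the libraries with the most miR-184-3p, are in the middle or low range.

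Among the other tested members, examined as 10 pairs after the data had been seen, the chromosome 6 neighbours miR-200c-3p and miR-141-3p had the closest order over libraries (rho = 0.93, exact permutation p = 0.0022, adjusted over the 10 pairs 0.022). Their Pearson's r was 0.70 (exact permutation p = 0.039, adjusted 0.247) and 0.67 without the 2 libraries farthest in miR-200c-3p. miR-141-3p and miR-429-3p, which come from different chromosomes, had r = 0.75 (exact permutation p = 0.049, adjusted 0.247). miR-204-5p and miR-211-5p, which share a seed, had r = −0.45 (exact permutation p = 0.278).

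Across the 217 miRNAs with at least 80 counts, those most like miR-184-3p over the 8 libraries were miR-122-5p (r = 0.82), the main miRNA of hepatocytes, miR-155-5p (0.78), an miRNA of activated myeloid cells, miR-149-5p (0.76), miR-8117 (0.72) and miR-204-5p (0.72). These are descriptions over libraries that share 2 ages. Without the 2 libraries farthest in miR-184-3p, r fell to 0.66 for miR-122-5p and 0.49 for miR-155-5p, but was 0.87 for miR-149-5p and 0.80 for miR-204-5p. For miR-204-5p the list was led by miR-125b-5p (0.76) and miR-342-3p (0.75), followed by miR-184-3p (0.72), miR-149-5p (0.72) and miR-26a-5p (0.69). miR-184-3p was thus among the 5 nearest to miR-204-5p and miR-204-5p among the 5 nearest to miR-184-3p.

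The age change was tested for all 419 miRNAs with edgeR's quasi-likelihood test and Benjamini-Hochberg adjustment. An adjusted p-value under 0.05 was reached by 16 of them (3.82%), with 9 (2.15%) higher and 7 (1.67%) lower at 21 months, and an unadjusted p-value under 0.05 by 51 (12.2%). Of the 5 tested members other than miR-184-3p, 0 passed after adjustment in edgeR and 1 did so unadjusted, miR-211-5p. In DESeq2 and limma 0 of the 5 passed after adjustment as well. The ages did not overlap in 20 of the 419 miRNAs (4.77%), and in none of the 8 members.

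miR-211-5p had a mean of 78.1 ± 45.8 CPM in young and 191 ± 135 CPM in aged libraries (SD, n = 4). In edgeR the log2 fold change of aged over young was 1.38 ± 0.45 (standard error), the p-value 0.00235 before and 0.0547 after adjustment. Without aged library 2, its highest library, the fold change was 0.73 (edgeR adjusted p = 0.637). Without young library 3 the adjusted p-value was 0.0148 and without aged library 4 0.0455. Over the settings other than libraries left out it ran from 0.0956 to 0.461. For single values the difference in mean log2(CPM + 10) was 1.17 (exact permutation p = 0.143).

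miR-204-5p had a mean of 193 ± 208 CPM in young and 225 ± 123 CPM in aged libraries, a difference smaller than the spread. Its log2 fold change was 0.25 (standard error 0.39, edgeR adjusted p = 0.873), and it was 1.33 without young library 4 (edgeR adjusted p = 0.121) and 0.0058 without aged library 4 (edgeR adjusted p = 0.990), over a range of adjusted p-values of 0.121 to 0.994 when libraries were left out. miR-200c-3p (87.7 ± 47.7 CPM in young and 58.1 ± 32.4 CPM in aged libraries) had −0.46 (standard error 0.59, edgeR adjusted p = 0.813). miR-141-3p had −0.40 (0.76, edgeR adjusted p = 0.899) and miR-429-3p −0.25 (1.57, edgeR adjusted p = 0.945). These standard errors exceeded the changes, and that of miR-429-3p spans several fold, so differences of this size were not detectable at this depth. The median log2 fold change of all tested miRNAs was −0.07.

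**Figure D4:**
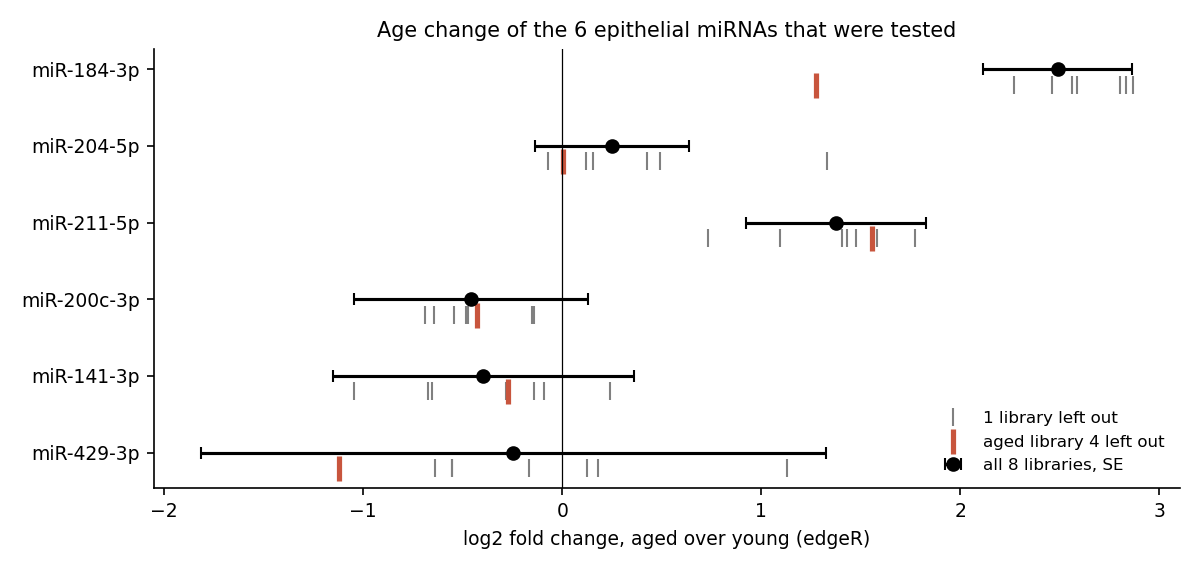
Log2 fold change of aged over young libraries in edgeR for the 6 tested miRNAs, with the standard error (points and bars, 8 libraries), and with each library left out in turn (ticks, with aged library 4 in red). miR-184-3p was selected on this change, so its bar is no test of it. For miR-184-3p leaving out aged library 4 moves the value from 2.49 to 1.28, that of miR-204-5p from 0.25 to 0.0058, that of miR-211-5p from 1.38 to 1.56 and that of miR-429-3p from −0.25 to −1.12.

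Other epithelial miRNAs were looked at as a list (7 of 7 detected, 5 tested, 0 called in either direction). Their sum was 713 to 1217 CPM in young and 825 to 1359 CPM in aged libraries, and aged library 4 had the highest, at 1.22 times the median of the others. miR-203-3p, an miRNA of stratified epithelium and skin, was even, with 499, 691, 778 and 652 CPM in young and 871, 770, 612 and 738 CPM in aged libraries 1 to 4. miR-205-5p, also of stratified epithelium, had 167, 221, 395 and 450 CPM in young and 293, 278, 132 and 521 CPM in aged libraries. It was highest in aged library 4, at 1.87 times the median of the others, and next in young library 4. Both miRNAs had more counts than any member of the miR-200 family. The other 5 miRNAs of the list had fewer counts, and their levels in aged library 4 lay on both sides of the other libraries. miR-192-5p, of gut, liver and kidney epithelium, was highest there, at 88.7 CPM or 2.98 times the median of the others, whereas miR-375-3p, of endocrine and gut epithelium, was at 5.55 CPM or 0.261 times, rank 7 of 8. miR-31-5p and miR-194-5p had 0 counts there and miR-215-5p had 1.

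Markers of the choroid plexus, here the 7 miRNAs hosted in the serotonin receptor gene Htr2c, were at or near 0. Of them 6 had 0 counts in all 8 libraries (miR-448-3p, miR-764-5p, miR-764-3p, miR-1264-3p, miR-1264-5p and miR-1912-3p), and miR-1298-5p had 2 counts, in young library 4, the library with the most miR-204-5p. Aged library 4 had 0 counts of the whole list. The floor of 3 counts stood for 16.6 CPM in that library, so a lower level of these miRNAs could have been missed. miRNAs of ciliated cells (5 of 5 detected, 4 tested) summed to 0 to 38.4 CPM in young and 23.7 to 105 CPM in aged libraries. Aged library 4 had the highest sum, from 7 counts each of miR-34b-5p and miR-34b-3p and 5 of miR-449c-5p, with 0 of miR-34c-5p and miR-449a-5p.

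Aged library 4 also stood high in miRNAs of other cell types. Of 13 lists for cell types and families, 9 had their highest sum in that library, more than in any other library, where it was 0 or 1. Among all 419 tested miRNAs, 65 (15.5%) were highest there and 115 (27.4%) in young library 2. The lists were chosen with earlier results of these data known and the library by its miR-184-3p, so the 9 of 13 are a description. The lymphocyte miRNA miR-150-5p was at 99.8 CPM in aged library 4, 5.20 times the median of the other libraries (young 0 to 73.8 CPM, other aged libraries down to 8.51 CPM). That value came from 18 counts, against 0 to 20 counts in the other libraries. The red cell list (3 of 4 detected, miR-486a-5p at 0 throughout, miR-451a called higher in aged) was at 932 CPM, 4.00 times the median, over ranges of 110 to 339 CPM in young and 233 to 932 CPM in aged libraries. Among the lists these were the largest ratios after miR-184-3p itself, and ciliated cells came next at 3.96 times, from 19 counts. Endothelial miRNAs (2 of 2) summed to 3.35 to 84.8 CPM in young and 4.25 to 111 CPM in aged libraries. Aged library 4 was at 3.30 times the median of the others, from 20 counts. Mural cell miRNAs (2 of 2) summed to 68.6 to 111 CPM and 93.1 to 299 CPM, with 3.16 times in aged library 4. The liver miRNA miR-122-5p, called higher in aged, had 154 to 616 CPM and 646 to 1414 CPM, with 2.30 times in aged library 4. The ratio was also above 1 for muscle (3 of 3, at 2.59 times, from 36 counts) and for neurons (10 of 11 detected, miR-488-3p at 0, at 1.37 times). The neuron sum of aged library 4 (2775 CPM) was nearly tied with that of young library 3 (2773 CPM). Of the 9 tested neuron miRNAs, 2 were highest in aged library 4, while miR-128-3p, miR-129-5p and miR-212-3p were at 0 CPM there. Microglia and myeloid miRNAs, of which miR-155-5p was called higher in aged, were at 0.746 times and oligodendrocyte miRNAs at 0.606 times, each the lowest of the 8 libraries. Within the myeloid list the members went different ways in aged library 4. Relative to the median of the others, miR-142a-3p, of all blood-derived cells, was at 0.469 times, miR-146a-5p, the most abundant, at 0.768 times, miR-21a-5p at 0.786 times and miR-142a-5p, from the hairpin of miR-142a-3p, at 0.891 times. miR-223-3p, of granulocytes and monocytes, was at 1.21 times and miR-155-5p at 5.12 times. The part of these cell types in the level of miR-184-3p was not tested.

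**Figure D5:**
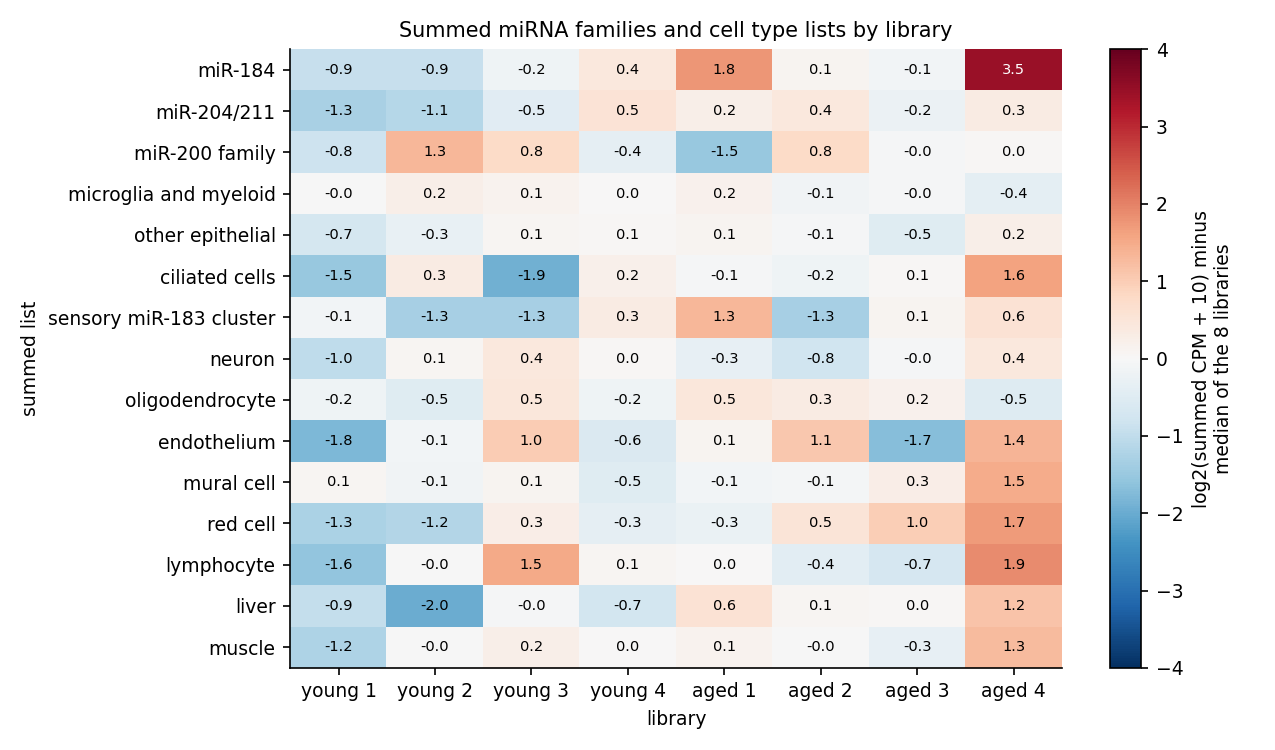
Summed CPM of miRNA families and cell type lists (rows) in each library (columns), as log2(summed CPM + 10) minus the median of the 8 libraries. The column of aged library 4 holds the highest cell in the row of miR-184 and in 9 of the 13 cell type lists. In the neuron row it is nearly tied with young library 3. Of the 13, the Htr2c list is left out as nearly all 0. The rows of the miR-204 and miR-200 families peak in young library 4 and young library 2.

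The 10 largest differences of aged library 4 from the other libraries, among miRNAs with at least 80 counts, were those of miR-184-3p (3.56), miR-155-5p (2.20), miR-451a (1.85), the erythrocyte miRNA, miR-143-3p (1.36), a smooth muscle miRNA, miR-204-5p (1.30), miR-133a-3p (1.28), a muscle miRNA, miR-145a-5p (1.23), the partner of miR-143, miR-122-5p (1.19), miR-130a-3p (1.16) and miR-199a-3p (1.09). A difference of at least 2 was reached by 2 of 217 miRNAs and of at least 1 by 13. In young library 2 the numbers were 6 and 48. miR-155-5p, second on this list, had 26.8, 67.2, 47.9 and 60.1 CPM in young and 259, 195, 170.1 and 344 CPM in aged libraries, and was higher in all aged than in all young libraries (log2 fold change 2.34, edgeR adjusted p = 7.5e-05). For miR-184-3p, aged libraries 2 and 3 lay within the young range.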

How the data were processed

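Small RNA of sorted microglia was sequenced in 4 libraries of young and 4 of aged mice after 25 PCR cycles, with no molecular identifiers described. Per the labels and the methods of the study, the authors used miRMaster 2.0 with Bowtie 1.2.3, GRCm38 and miRBase 22.1, and deposited raw estimated counts (that is, expected counts) for mature miRNAs. Of 3173 nonzero values 68 carried a fraction, none of them in the 8 members. Counts were rounded to whole numbers for the count tests. CPM was computed on the summed miRNA counts of each library, so a change in the share of all small RNA that is miRNA is not seen.

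The 8 members and the cell type lists were chosen with earlier results of these data known. Named were the members, the other arms of their hairpins, the marker lists with up to 4 leading miRNAs each, the 10 largest differences of aged library 4, and the 5 miRNAs most like miR-184-3p, miR-204-5p and miR-200c-3p among those with at least 80 counts. Single miRNAs of the marker lists with values by library (miR-203-3p, miR-205-5p, miR-192-5p, miR-375-3p, miR-34b, miR-34c-5p, miR-449a-5p, miR-449c-5p, miR-142a-3p) were in part chosen after their values were seen.

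Tested were the 419 of 1966 miRNAs that reached 5 counts in 10% or more of the libraries of an age, with edgeR 4.0.16 in R 4.3.3 (TMM factors 0.860 to 1.19, quasi-likelihood fit with the default of that version, two-sided, Benjamini-Hochberg). The biological coefficient of variation was 0.488. The edgeR steps were checked on simulated counts with 4-fold changes: of 200 changed miRNAs among 419, 73.0% were recovered, 96.3% of the 82 with over 20 counts, and 6 of 219 unchanged ones were called. Levels were compared with two-sided exact permutation tests on log2(CPM + 10). Intervals are 95% Wilson intervals and, like the floor of 3 counts, cover counting error only. Each library is 1 mouse except aged library 4 (2 mice), and no pair of the 28 looked like copies (smallest chi-square per degree of freedom 10.1). Replicate numbers name different animals and the study does not pair them. Alternatives were DESeq2 1.42.0, limma 3.58.1, other normalizations, filters and pseudocounts, a replicate block, thinned counts, and each library left out. Coordinates are from GENCODE M21, sequences from RefSeq. scipy 1.17.1 was used in Python 3.11.15.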

Additional observations from a re-analysis of the deposited data

Results flagged for a closer look

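In 4 of 15 groups of 4 libraries (the levels of members within an age), 1 library lay far from the others, measured as its gap to the nearest library over the whole range of the group. For normally distributed values chance gives about 1 in 20 such groups, or 0.75 of 15. Levels near the floor do not follow that rule, as a group with counts in 1 library only always has a gap of 1. The 4 groups therefore cannot be judged against that number. miR-204-5p in young mice had a gap of 0.839 because of young library 4 (502 CPM against 57.6 to 129 CPM). miR-200c-3p in young mice had a gap of 0.842 because of young library 2 (158 CPM against 53.5 to 70.1 CPM). miR-200a-3p had a gap of 1 in young and 1 in aged mice, since 1 library of each age held 4 counts and the other 3 held 0. miR-184-3p in aged mice did not reach the limit, as aged library 1 lay between aged library 4 and the rest.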

How the results depend on the processing

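The number of miRNAs that passed in the test of age depended on the tool. Against 16 with edgeR's default fit, it was 10 with DESeq2, 2 with the bias-adjusted fit, 1 of 156 after a filter of 10 counts in each library, and 0 with limma, where 45 had an unadjusted p-value under 0.05. Other normalizations and no filter gave 12 to 14, and leaving out 1 library 6 (without aged library 3) to 21 (without young library 3), with 9 without young library 2 and 7 without aged library 1. Same-numbered libraries of the 2 ages, each taken relative to the mean of its age, correlated at −0.08 to 0.07. For number 4 alone (r = 0.07) was each library the other's closest across ages. The replicate block gave 11 miRNAs. The difference of aged library 4 in miR-184-3p ran from 3.46 to 3.604 with libraries left out and from 3.17 to 3.67 under other scalings, pseudocounts, references and thinning. The count of members highest in aged library 4, miR-184-3p included, was 1 to 2 with libraries left out, as miR-429-3p joined without young library 3 and miR-204-5p without young library 4. The correlation of miR-184-3p with miR-204-5p ran from 0.66 to 0.91 with libraries left out, and its unadjusted exact permutation p-value was above 0.05 in 6 of 8 cases, which have 1 library fewer. With libraries left out the sign of some small values turned. The log2 fold change ran from −0.074 to 1.33 for miR-204-5p, −1.04 to 0.24 for miR-141-3p and −1.12 to 1.13 for miR-429-3p, the difference in mean log2 level from −0.69 to 0.31 for miR-141-3p and −0.48 to 0.33 for miR-429-3p, and the correlation with miR-184-3p from −0.091 to 0.16 for miR-211-5p and −0.34 to 0.33 for miR-429-3p. That with miR-200c-3p was −0.81 without aged library 4. Beside the values named here and the dependence of miR-211-5p and miR-429-3p given above, 276 of 310 values kept their direction and their side of the threshold, or moved by less than the spread. For miR-184-3p that spread includes aged library 4, so its log2 fold change of 2.49, which was 1.28 without that library, counts among them. Values whose test did not pass in either setting are also among them, so the number is no measure of robustness. Apart from fewer libraries or miRNAs, the cause of these shifts was not tested.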

Other observations

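miR-200c-3p had its own neighbours over the 8 libraries, other than those of miR-184-3p and miR-204-5p. The miRNAs most like it in log2(CPM + 10) were miR-361-5p (r = 0.93), miR-146b-5p (0.90), a relative of the inflammatory miR-146a, miR-6983-3p (0.82), miR-744-5p (0.81) and miR-466b-3p (0.80). Without the 2 libraries farthest in miR-200c-3p, aged 1 and young 2, r was 0.74 for miR-146b-5p and 0.66 for miR-6983-3p, but 0.35 for miR-361-5p, 0.07 for miR-744-5p and −0.56 for miR-466b-3p, so the likeness of the last 3 rests on those libraries. Young library 2 had the highest level of 115 of the 419 tested miRNAs (27.4%), among them miR-200c-3p and miR-141-3p.

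The miR-183 cluster of sensory cells was near the floor, with miR-96-5p at 0 in all libraries and a sum of 0 to 21.4 CPM in young and 0 to 53.2 CPM in aged libraries, highest in aged library 1, the library with the second highest miR-184-3p.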
